A study of Homo sapiens with 12 samples.

Results

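The genes described here encode the minichromosome maintenance (MCM) proteins MCM2, MCM3, MCM4, MCM5, MCM6, MCM7, MCM8 and MCM10. They were taken by symbol from a table of raw read counts, and all 8 were found among its 58051 genes. The RNA came from MV4-11, an established human line of acute myeloid leukaemia with a KMT2A rearrangement and mutant FLT3. Cells of this 1 line were exposed for 6 h to 200 nM palbociclib, 200 nM BSJ-03-123 or 200 nM YKL-06-102, or to the vehicle, 0.1% DMSO, with 3 libraries in each of the 4 groups. Palbociclib inhibits the kinases CDK4 and CDK6, and the series text calls the other compounds phthalimide conjugates that are specific for CDK6. Whether the replicates were separate cultures is not in the labels, and the spread that the p-values rest on may therefore be technical.

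MCM2 to MCM7 form the ring that unwinds DNA ahead of the replication fork. The ring is loaded onto origins in G1 by the origin recognition complex with CDC6 and CDT1, and becomes an active helicase when CDC45 and the GINS complex join it. MCM10 is needed for that activation and is not a ring subunit. MCM8 works with MCM9 in a separate helicase of homologous recombination. Genes of this pathway are classical targets of E2F transcription factors, which the retinoblastoma protein holds in check until cyclin-dependent kinases phosphorylate it.

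Library totals ranged from 18764307 to 25539858 counts, and each member had between 551 and 25478 reads in every library. Counting error was thus small against the changes from DMSO for all 8. It weighed most on MCM8, the member with the fewest reads. DMSO replicate 2 stood apart from the other DMSO libraries, with a chi-square per degree of freedom, near 1 for sampling noise, of 5.72 and 8.65 against them, where no other pair of replicates exceeded 2.91. All 10 myeloid markers looked for were expressed, and CD33, SPI1, LYZ and FLT3 had DMSO means of 172, 315, 658 and 394 CPM (read counts scaled to a common library size). MPO was the lowest, at 7.64 CPM. With palbociclib, BSJ-03-123 and YKL-06-102, 6, 5 and 7 of the 10 were called higher (edgeR, adjusted p below 0.05), and 0, 0 and 1 lower. Of all tested genes, 15.6%, 12.4% and 15.6% were called higher, and 17.6%, 15.7% and 21.3% lower. Of 11 markers of T, B, erythroid, epithelial and stromal cells none exceeded 1.25 CPM in any library, and 4 were at 0 in all 12. Their summed level was 1.09 to 1.82 CPM with DMSO, 1.19 to 1.78 CPM with palbociclib, 1.32 to 1.96 CPM with BSJ-03-123 and 1.61 to 1.68 CPM with YKL-06-102. A marker listed with them, PECAM1, had group means of 122 to 149.9 CPM, and monocytic cells also express it. Mitochondrially encoded genes took 2.43% to 3.45% of the counts with DMSO and 2.52% to 3.20% with the compounds. The transcript of CDK6 rose slightly with each compound (log2 fold change against DMSO 0.14 to 0.20). That of CDK4 fell with each (-0.45, -0.42 and -0.36 with palbociclib, BSJ-03-123 and YKL-06-102). Protein was not measured.

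All 8 members fell with all 3 compounds, and they fell less with YKL-06-102 than with palbociclib or BSJ-03-123. Together they took 0.345% to 0.359% of all counts in the DMSO libraries. With palbociclib this share was 0.0976% to 0.0979%, with BSJ-03-123 0.108% to 0.110% and with YKL-06-102 0.157% to 0.161%, so the 4 groups did not overlap. In every member each library of each compound lay below each DMSO library, as did 21.1% of all tested genes with palbociclib, 19.4% with BSJ-03-123 and 25.2% with YKL-06-102. In bulk RNA, fewer cells in a phase that expresses these genes and less RNA per cell cannot be told apart.

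**Figure D1:**
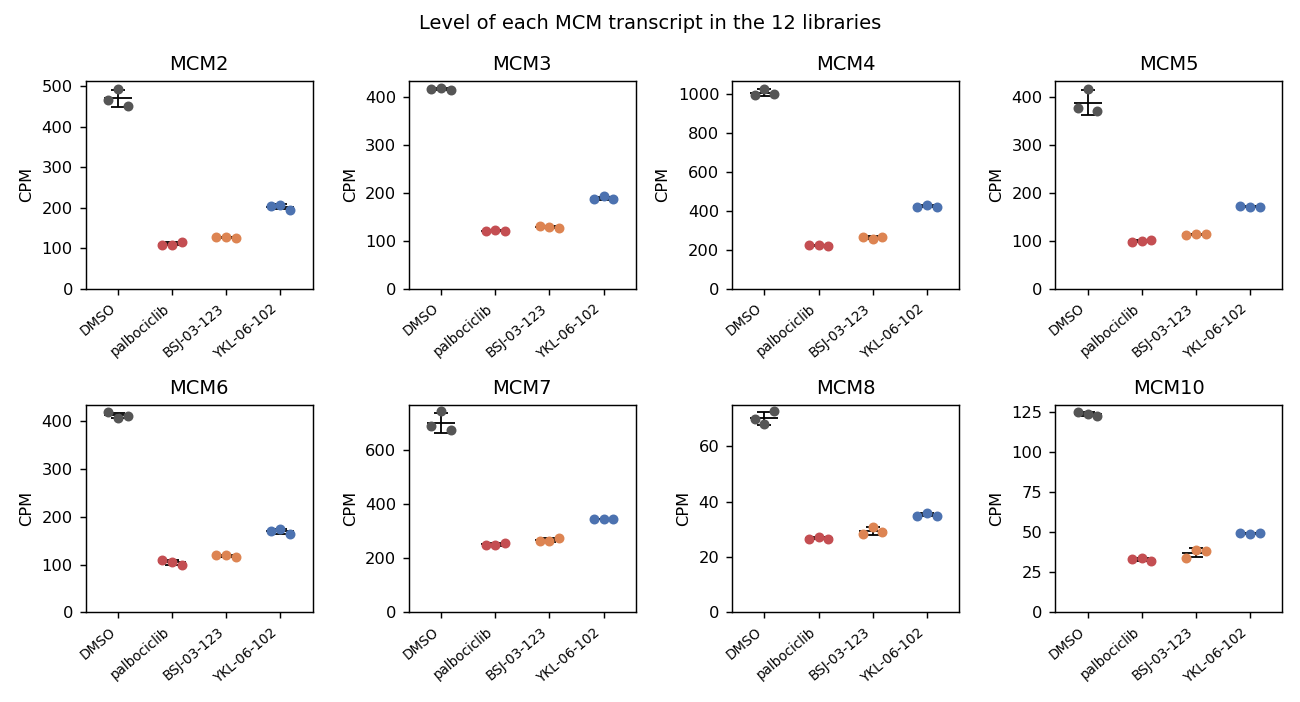
Level of the 8 MCM transcripts in CPM (vertical axes, each from 0) in the 12 libraries, by treatment (horizontal axes). Points are libraries, dashes are group means and bars are SD over 3 libraries. In each panel the DMSO points are highest, those of YKL-06-102 come next, and those of palbociclib and BSJ-03-123 are lowest, for MCM4 near 222 and 263 CPM against 1009 CPM.

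MCM4 (ENSG00000104738, GRCh38 chromosome 8, 47960185 to 47978160) encodes a ring subunit and had the highest mean CPM of the 8 with DMSO and with YKL-06-102. It stood at 998, 1028 and 1001 CPM in DMSO replicates 1 to 3. With palbociclib it was at 225, 223 and 219 CPM, with BSJ-03-123 at 268, 257 and 265 CPM, and with YKL-06-102 at 420.1, 429 and 420 CPM. The 4 groups were fully separate, with palbociclib lowest and BSJ-03-123 just above it. Its log2 fold change against DMSO was -2.18 ± 0.030 (SE) with palbociclib, -1.94 ± 0.030 with BSJ-03-123 and -1.25 ± 0.029 with YKL-06-102 (edgeR quasi-likelihood test, adjusted p = 3.70e-28, 6.92e-27 and 1.56e-22). Among the 14214 genes tested, MCM4 had the smallest p-value of all in the first 2 comparisons and the second smallest with YKL-06-102.

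MCM2 (ENSG00000073111, chromosome 3, 127598223 to 127622436) carries a histone-binding tail on the ring. Its levels were 465, 493 and 452 CPM with DMSO, 108, 109 and 115 CPM with palbociclib, 128, 127 and 126 CPM with BSJ-03-123 and 204, 207 and 195 CPM with YKL-06-102. No library of one group reached into the range of another, and the DMSO library highest for MCM2 was replicate 2. The transcript fell to 23.5% of its DMSO level with palbociclib (95% interval 22.3 to 24.8), to 27.0% with BSJ-03-123 (25.7 to 28.4) and to 43.0% with YKL-06-102 (40.9 to 45.1).

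MCM7 (ENSG00000166508, chromosome 7, 100092728 to 100101940), also a ring subunit, was second in mean CPM with DMSO and YKL-06-102 and first with palbociclib and BSJ-03-123. MCM7 fell the least of the ring, and with BSJ-03-123 its libraries overlapped those of MCM4 in CPM. DMSO libraries held 688, 743 and 674 CPM, palbociclib libraries 247, 249 and 256 CPM, BSJ-03-123 libraries 262, 263 and 276 CPM and YKL-06-102 libraries 346, 346 and 345 CPM. The ranges of the 4 groups again did not overlap, with palbociclib and BSJ-03-123 close to each other. Its log2 fold changes were -1.48 ± 0.034, -1.40 ± 0.034 and -1.02 ± 0.034 with palbociclib, BSJ-03-123 and YKL-06-102.

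The other ring subunits lay between MCM4 and MCM7 with palbociclib and BSJ-03-123. MCM3 (ENSG00000112118, chromosome 6, 52264009 to 52284881) spanned 415 to 419 CPM over the DMSO libraries, 120 to 123 CPM with palbociclib, 127 to 132 CPM with BSJ-03-123 and 187 to 193 CPM with YKL-06-102. MCM5 (ENSG00000100297, chromosome 22, 35400063 to 35425430) spanned 369 to 417 CPM, 97.6 to 101 CPM, 112 to 115 CPM and 170.0 to 172 CPM in the same order. MCM6 (ENSG00000076003, chromosome 2, 135839626 to 135876426) spanned 407 to 419 CPM, 99.3 to 109 CPM, 115 to 119 CPM and 164 to 175 CPM. For these 3 subunits the log2 fold changes were -1.78, -1.97 and -1.97 with palbociclib, -1.69, -1.77 and -1.81 with BSJ-03-123, and -1.14, -1.18 and -1.28 with YKL-06-102, with standard errors of 0.029 to 0.038. MCM4 had the lowest ring value with palbociclib and BSJ-03-123, while with YKL-06-102 those of MCM6 and MCM4 lay within their standard errors.

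Outside the ring, MCM10 (ENSG00000065328, chromosome 10, 13161554 to 13211104) fell about as far as the ring did. It was at 125, 123 and 123 CPM with DMSO, 33.1, 33.8 and 31.7 CPM with palbociclib, 33.8, 39.1 and 38.1 CPM with BSJ-03-123 and 49.2, 49.0 and 49.4 CPM with YKL-06-102. The libraries of BSJ-03-123 were the most scattered, and their lowest lay just above the highest palbociclib library. Its log2 fold changes were -1.91 ± 0.045, -1.74 ± 0.044 and -1.33 ± 0.042 with palbociclib, BSJ-03-123 and YKL-06-102. The last was the lowest estimate of any member with that compound. Its 95% interval (-1.41 to -1.24) overlapped those of other members, among them MCM6 (-1.35 to -1.21).

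MCM8 (ENSG00000125885, chromosome 20, 5950652 to 5998977), the recombination helicase, was the least abundant member and had the smallest estimated decrease with each compound. Its DMSO libraries held 69.7, 67.8 and 72.6 CPM, against 26.5, 27.3 and 26.6 CPM with palbociclib, 28.2, 30.8 and 28.9 CPM with BSJ-03-123 and 34.9, 36.0 and 34.9 CPM with YKL-06-102. Each compound brought it down to between 38.3% and 50.4% of the DMSO level, with log2 fold changes of -1.39 ± 0.047, -1.25 ± 0.047 and -0.99 ± 0.044 for palbociclib, BSJ-03-123 and YKL-06-102. MCM9, its partner and no member of the set, was at 34.0 ± 1.10 CPM with DMSO (SD, n = 3) and changed by -0.21 ± 0.050, -0.25 ± 0.051 and -0.28 ± 0.050 with palbociclib, BSJ-03-123 and YKL-06-102. The difference between MCM8 and MCM9 was not itself tested. The 95% intervals of MCM8 and MCM7 overlapped with each compound, and with YKL-06-102 their values lay within their standard errors.

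**Figure D2:**
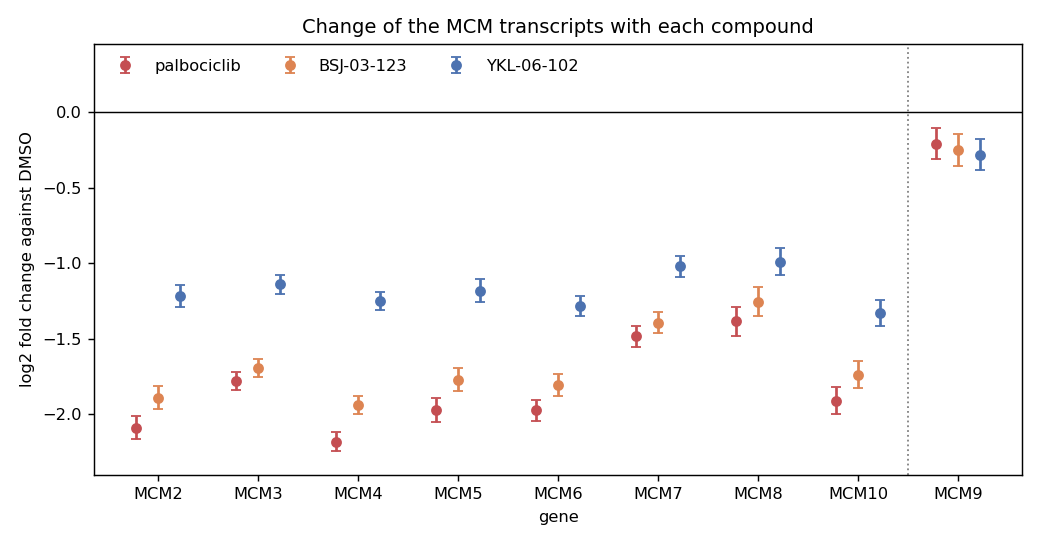
Log2 fold change against DMSO (vertical axis) of the 8 members and of MCM9, right of the dotted line (horizontal axis), for the 3 compounds. Points are edgeR estimates from 3 libraries per group and bars are 95% intervals. YKL-06-102 stands above the other compounds for each member, and MCM9 stays near -0.2 to -0.3 with all of them.

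Over the 8 members, the median log2 fold change was -1.94 with palbociclib, -1.75 with BSJ-03-123 and -1.20 with YKL-06-102, where the medians of all tested genes were 0.014, 0.0080 and -0.017. All 8 were called lower in each comparison (adjusted p below 0.05), as were 17.6%, 15.7% and 21.3% of all genes, while 15.6%, 12.4% and 15.6% were called higher. Their adjusted p-values (edgeR) ran from 3.70e-28 to 9.82e-20 with palbociclib, 6.92e-27 to 1.26e-18 with BSJ-03-123 and 1.56e-22 to 1.32e-16 with YKL-06-102. Scaling by library totals instead of TMM moved the split of calls over all genes, from 2507 lower and 2224 higher to 1949 and 3396 with palbociclib, from 2234 and 1763 to 1765 and 2852 with BSJ-03-123 and from 3034 and 2215 to 2422 and 2877 with YKL-06-102, and all 8 members stayed lower. The comparisons share the DMSO libraries. Without DMSO replicate 2 all 8 members were still called with each compound, and the medians were -1.92, -1.73 and -1.14.

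Direct comparison showed how the compounds differed at the same dose and time. YKL-06-102 left all 8 members higher than palbociclib did, where 12.7% of all genes were called higher (edgeR, adjusted p = 4.61e-19 to 3.91e-07). In each member the 3 libraries lay above those of palbociclib, as in 20.1% of all genes. The differences on the log2 scale were 0.93 ± 0.030 for MCM4, 0.87 ± 0.037 for MCM2, 0.79 ± 0.039 for MCM5, 0.69 ± 0.036 for MCM6, 0.64 ± 0.031 for MCM3, 0.58 ± 0.048 for MCM10, 0.46 ± 0.034 for MCM7 and 0.40 ± 0.050 for MCM8. MCM4 was thus 1.90 times as high with YKL-06-102 as with palbociclib, and MCM8 1.32 times. Against BSJ-03-123 all 8 were again higher with YKL-06-102, where 10.4% of all genes were called in that direction (edgeR, adjusted p = 3.58e-16 to 1.89e-04). The log2 values of BSJ-03-123 minus YKL-06-102 ran from -0.69 (MCM4) to -0.27 (MCM8) with a median of -0.54, and again no libraries overlapped, as in 17.6% of all genes with BSJ-03-123 below.

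BSJ-03-123 and palbociclib gave values close to each other. MCM4, MCM2 and MCM5 were higher with BSJ-03-123, by 0.24 ± 0.031, 0.20 ± 0.038 and 0.20 ± 0.040 (edgeR, adjusted p = 6.48e-05, 0.0171 and 0.0296), in a comparison where 0.155% of genes were called higher and 0 lower. When each of the 6 libraries was left out in turn, MCM4 was called in all 6 runs (adjusted p = 0.000356 to 0.00301). MCM2 was called in 1 of them, that without palbociclib replicate 3 (0.0264 to 0.179), and MCM5 in 0 (0.0639 to 0.208). The other 5 members did not pass the test, with MCM6 at 0.17 (95% interval 0.090 to 0.24, adjusted p = 0.0685), MCM10 at 0.17 (0.067 to 0.28), MCM8 at 0.13 (0.024 to 0.24), MCM7 at 0.089 (0.018 to 0.16) and MCM3 at 0.086 (0.020 to 0.15). In each of the 8 members all 3 BSJ-03-123 libraries lay above all 3 palbociclib libraries, an arrangement seen in 8.01% of all genes. The highest upper bound of the 8 intervals was that of MCM4, at 124% of its palbociclib level.

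The ring holds its subunits in equal number, and their transcripts were compared per length, as CPM per kb of annotated exon. With DMSO the order was MCM7 (159.9 ± 8.32 CPM per kb, SD, n = 3), MCM4 (145 ± 2.40), MCM3 (114 ± 0.475), MCM6 (100.1 ± 1.45), MCM2 (95.9 ± 4.30), MCM5 (52.8 ± 3.47), MCM10 (22.7 ± 0.196) and MCM8 (9.11 ± 0.314). Of neighbours in that order, the libraries of MCM6 and MCM2 alone overlapped. With palbociclib MCM3 (33.2 ± 0.440) stood above MCM4 (31.9 ± 0.418), and with YKL-06-102 MCM2 (41.2 ± 1.25) and MCM6 (41.2 ± 1.31) could not be ordered. The order depends on the length used. With the longest transcript in place of all exons MCM4 led MCM7 in DMSO, at 26.1% against 24.6% of the summed level of the ring subunits. By that length MCM4 also stayed above MCM3 with palbociclib, at 21% against 15%.

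Because the subunits fell unequally, their shares in that summed per-length level moved. MCM7 held 23.7%, 24.6% and 23.5% of it in the DMSO libraries, 30.8%, 30.9% and 31.7% with palbociclib, 29.2%, 29.6% and 30.7% with BSJ-03-123 and 26.6%, 26.2% and 26.9% with YKL-06-102. MCM4 moved the other way, from 21.7% ± 0.27 with DMSO (SD, n = 3) to 17.3% ± 0.28 with palbociclib, 18.5% ± 0.29 with BSJ-03-123 and 20.4% ± 0.13 with YKL-06-102. For both, the 4 groups separated (exact permutation test of the 4 group labels over 12 libraries, adjusted p = 0.000195 over 6 subunits, from the smallest p the design can give, 6.5e-05). MCM2 went from 14.4% to 12.3%, 12.7% and 13.9% in the same order (exact permutation test, adjusted p = 0.000779).

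MCM3 was at 17.1% with DMSO, 18.1% with palbociclib, 17.3% with BSJ-03-123 and 17.4% with YKL-06-102. MCM5 was at 7.90%, 7.33%, 7.59% and 7.85% (exact permutation tests of MCM3 and MCM5, adjusted p = 0.0118 for each). Both calls were lost without palbociclib replicate 2 (adjusted p = 0.0677 and 0.0506). MCM6 went from 15% to 13.9%, 14.0% and 13.9%, and missed the threshold (exact permutation test, adjusted p = 0.0695). It passed without DMSO replicate 2 (adjusted p = 0.0343), without palbociclib replicate 1 (0.0388) and without palbociclib replicate 3 (0.0447). A pair of groups with 3 libraries each cannot reach an exact p below 0.10, so pairs of groups were not tested for shares.

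**Figure D3:**
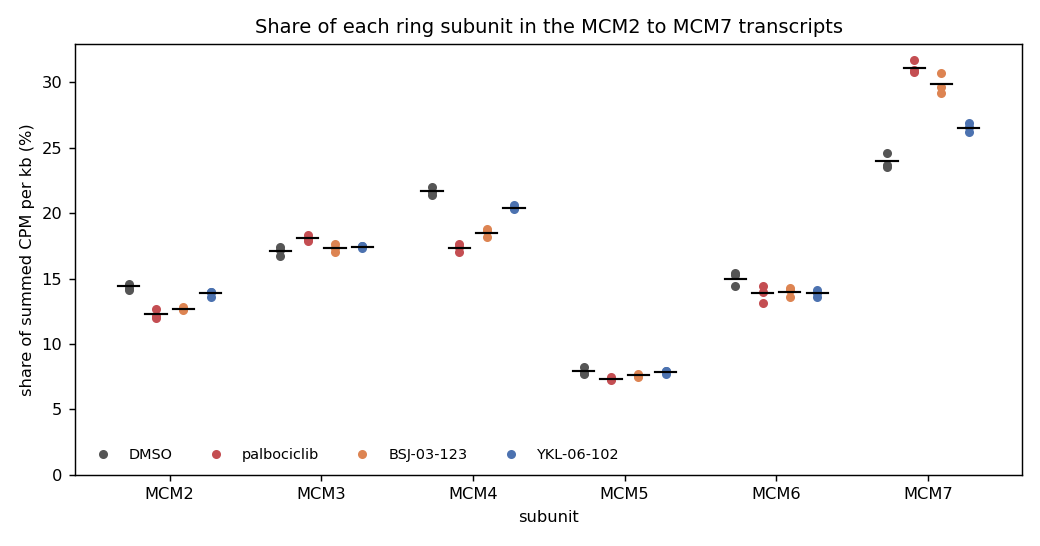
Share of each ring subunit (horizontal axis) in the summed CPM per kb of MCM2 to MCM7, in percent (vertical axis, from 0). Points are libraries, coloured by treatment, and bars are group means over 3 libraries. The MCM7 share rises from 24% with DMSO to 31.1% with palbociclib while the MCM4 share goes from 21.7% to 17.3%, and YKL-06-102 lies between DMSO and the other compounds for both.

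The members outside the ring were set against the mean log2 CPM of the 6 ring subunits. Relative to the ring, MCM8 was higher than with DMSO by 0.53 with palbociclib, 0.49 with BSJ-03-123 and 0.19 with YKL-06-102. The groups differed (exact permutation test of 4 group labels, adjusted p = 0.000649 over 2 genes). MCM7, itself part of that mean, also fell less than the other ring subunits. Its 95% intervals against DMSO overlapped those of MCM8 with each compound. The mean MCM10 ratio was within 0.0060 of that with DMSO for palbociclib and BSJ-03-123, where the SD over libraries was 0.049 and 0.12. It was 0.15 lower with YKL-06-102, and the difference between groups did not pass (exact permutation test, adjusted p = 0.0901). These 2 tests were chosen after the values had been seen. Without DMSO replicate 2 the MCM8 values were 0.48, 0.44 and 0.15 (exact permutation test, adjusted p = 0.000649). Those of MCM10 were -0.023, -0.018 and -0.17, and again did not pass (exact permutation test, adjusted p = 0.0970).

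A gene on the other strand starts beside 4 of the members, MCM2, MCM4, MCM7 and MCM8, which gives a local comparison. MCM4 starts 2 bases from PRKDC, the catalytic subunit of the DNA-dependent protein kinase of DNA end joining. PRKDC was at 827, 832 and 882 CPM with DMSO, 647, 594 and 660.0 CPM with palbociclib, 741, 748 and 667 CPM with BSJ-03-123 and 716, 612 and 665 CPM with YKL-06-102. It fell with each compound, by 0.42, 0.24 and 0.35 on the log2 scale, far less than MCM4, and its compound groups overlapped one another in part. The log2 ratio of MCM4 to PRKDC differed from that with DMSO by -1.76, -1.70 and -0.90 with palbociclib, BSJ-03-123 and YKL-06-102.

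MCM8 starts 94 bases from TRMT6, a subunit of a tRNA methyltransferase. TRMT6 was at 64.3 ± 1.89 CPM with DMSO (SD, n = 3) and changed by -0.14, -0.15 and -0.11 with palbociclib, BSJ-03-123 and YKL-06-102, each of which passed the test. MCM7 and AP4M1, a subunit of an adaptor complex of vesicle transport, overlap by 392 bases at their starts. AP4M1 was at 16.7 ± 0.681 CPM with DMSO and changed by -0.31 with palbociclib and BSJ-03-123 and by -0.077 with YKL-06-102, where it did not pass. MCM2 and TPRA1, a membrane protein gene, overlap by 45 bases at their starts, and TPRA1 did not pass with any compound (0.017, -0.057 and -0.086). MCM2 also overlaps AC023593.1, an antisense gene that has no counts here, by 2331 bases. Of these, 1113 lie in exons of both genes. The library kit marks strand, but whether HTSeq made use of it is not given in the sources used here. Reads in those overlaps are therefore uncertain. For all 4 pairs the ratio of the member to its neighbour differed between the groups (exact permutation test of 4 group labels, adjusted p = 0.000130 to 0.00117 over 4 pairs), a test also chosen after the values had been seen. Without DMSO replicate 2 all 4 pairs again passed.

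**Figure D4:**
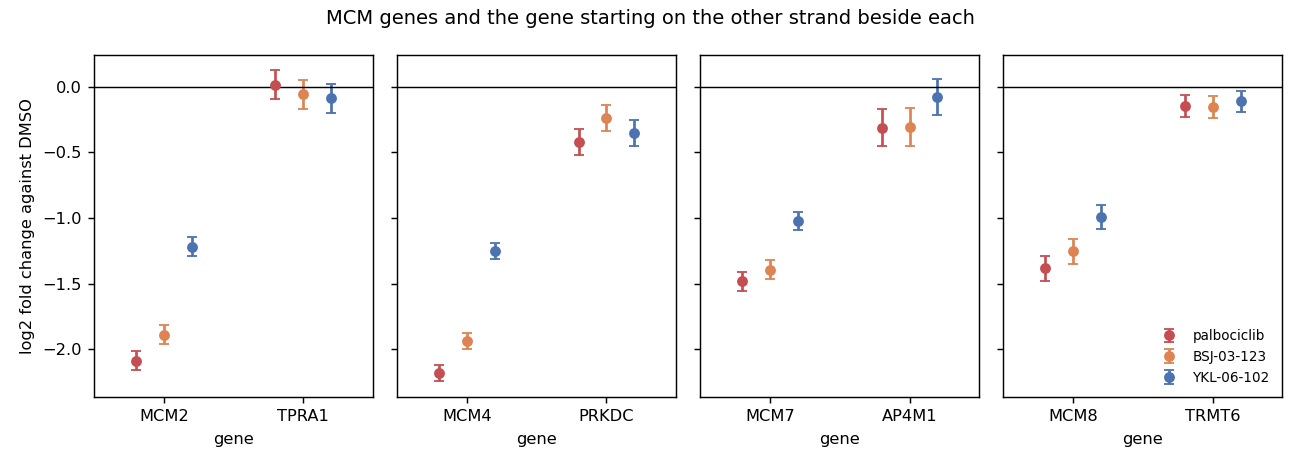
Log2 fold change against DMSO (vertical axis) of 4 members and of the gene that starts on the other strand beside each (horizontal axes), for the 3 compounds. Points are edgeR estimates from 3 libraries per group and bars are 95% intervals. The neighbours lie between 0.017 and -0.42, above every value of the members.

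The promoter windows of the members were read for the letters of an E2F site. RefSeq windows on GRCh38.p14, from 250 bases before to 50 after an annotated start, were at hand for 6 members in 8 windows, 3 of them for MCM7. The motif TTTNNCGC, searched on both strands, was present in 5 of the 8 windows and in 5 of the 6 members, against 6.89% of 35116 windows of all genes. In MCM2 and MCM6 a match on one strand overlapped a match on the other, so that the capitals span 12 bases. The sites are shown 5′ to 3′ on the strand of the gene, with the matched letters in capitals. Positions are counted from the RefSeq start of the window that holds the site.
MCM6, from base -152 (chr2:135876575-135876604, minus strand): ggctttgcaTTTGGCGCGAAAtccctttcc
MCM6, from base -90 (chr2:135876513-135876542, minus strand): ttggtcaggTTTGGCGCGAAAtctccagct
MCM2, from base 3 (chr3:127598404-127598433, plus strand): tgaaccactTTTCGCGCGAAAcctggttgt
MCM3, from base -174 (chr6:52284898-52284927, minus strand): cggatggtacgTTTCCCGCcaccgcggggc
MCM3, from base -150 (chr6:52284874-52284903, minus strand): cggggcgcgcaGCGGAAAAcccgaagaaga
MCM3, from base -4 (chr6:52284728-52284757, minus strand): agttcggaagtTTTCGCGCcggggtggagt
MCM7, from base -187 (chr7:100101566-100101595, minus strand): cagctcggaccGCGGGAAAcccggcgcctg
MCM7, from base -9 (chr7:100101388-100101417, minus strand): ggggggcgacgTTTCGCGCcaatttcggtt
MCM8, from base 27 (chr20:5950667-5950696, plus strand): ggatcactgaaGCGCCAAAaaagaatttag

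MCM6, with 2 copies of the same 12 letters, and MCM3, with 3 separate matches, fell by 1.97 and 1.78 on the log2 scale with palbociclib. MCM2 and MCM8, each with a single printed site that lies after the annotated start, fell by 2.09 and 1.39. MCM7, with 2 sites in the same window and none in its other windows, fell by 1.48. Both sites lie before the RefSeq start of that window, but after the outermost GENCODE start of MCM7, at base 100101940. No window was at hand for MCM4 and MCM5. Whether the decrease goes with the number or place of the matches was not tested. The MCM10 window held no match to these letters, and MCM10 fell by 1.91. A match is a description of letters and not a measured site, and binding was not measured here. The CCAAT box, read as CCAAT on both strands, was in 7 of the 8 windows and in 34.6% of all windows. The cell-cycle homology region motif TTTGAA was in 0 of the 8 windows and in 15.2% of all.

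Genes whose profile was most like the ring's were found by the root mean square difference in log2 CPM, taken from each gene's DMSO mean, over the 12 libraries. The 5 nearest of 10360 genes were ORC1, the largest subunit of the origin recognition complex (difference 0.0520), the repressor E2F8 (0.0672), the thymidylate synthase TYMS (0.0754), the exonuclease EXO1 (0.0795) and the transcription factor MYBL2 (0.107). TYMS overlaps an antisense gene, so its counts are uncertain. ORC1 changed by -1.86, -1.78 and -1.17 with palbociclib, BSJ-03-123 and YKL-06-102. Among the ring subunits themselves the difference from their common mean was smallest for MCM5 (0.0396) and largest for MCM7 (0.291), so these genes were nearer to the mean than some subunits were. For MCM8 the nearest were RBBP8, which acts in DNA end resection (0.0541), the fork protection gene TIPIN (0.0612) and geminin, GMNN (0.0650). For MCM10 they were TYMS (0.0690), EXO1 (0.0730) and E2F8 (0.0804). Without DMSO replicate 2, 4 of the 5 genes nearest to the ring were shared, with PAQR4 in place of MYBL2, as were 2 of the 3 for MCM8, with FEN1 in place of GMNN, and all 3 for MCM10.

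Other genes of the pathway, from lists written from general knowledge, changed unevenly. Each list is a selection of genes. Its lowest and highest genes are named by estimate, and some lie within the standard errors of the next gene. Of all tested genes, 17.6%, 15.7% and 21.3% were called lower with palbociclib, BSJ-03-123 and YKL-06-102, and 15.6%, 12.4% and 15.6% higher. Of 9 genes of origin licensing, 6 fell with palbociclib, 6 with BSJ-03-123 and 7 with YKL-06-102, at medians of -1.30, -1.26 and -0.85. The loader CDC6 was lowest with palbociclib (-2.16 ± 0.047) and with YKL-06-102 (-1.33 ± 0.043), and was the one gene of that list called between BSJ-03-123 and palbociclib, at 0.29 ± 0.054. CDT1, which brings the ring to origins, changed by -1.57, -1.42 and -0.85. ORC4, at 0.086 ± 0.068 with palbociclib, did not pass there and rose with YKL-06-102 by 0.18 ± 0.067 (edgeR, adjusted p = 0.0315).

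All 13 listed genes of helicase activation fell with each compound, with medians of -1.21, -1.16 and -0.75 for palbociclib, BSJ-03-123 and YKL-06-102. They ran from GINS2, a subunit of the complex that joins the ring (-2.60 ± 0.063 with palbociclib), to DBF4, the activating partner of the kinase CDC7 (-0.29 ± 0.047). With YKL-06-102 the ends of the list were CDC45 (-1.63 ± 0.045) and DBF4B (-0.19 ± 0.075). All 13 listed genes of the fork also fell with each compound. They ran from the checkpoint mediator CLSPN (-2.19 ± 0.052 with palbociclib, -1.44 ± 0.048 with YKL-06-102) to the primase subunit PRIM2 (-0.54 ± 0.073 and -0.38 ± 0.071).

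Genes that bind or remove the ring changed by less. MCMBP, which binds free MCM proteins, fell from 315 CPM to 236 CPM with palbociclib and BSJ-03-123 and to 262 CPM with YKL-06-102 (-0.42, -0.42 and -0.27). HROB, which recruits MCM8 and MCM9, changed by -0.67 ± 0.082 with palbociclib and -0.33 ± 0.077 with YKL-06-102, the lowest values of its list, in which MCMDC2 was highest (0.23 ± 0.12 and 0.047 ± 0.13, neither past the test). Of 8 genes of helicase unloading, 4 fell and 1 rose with palbociclib, and 5 fell and 2 rose with YKL-06-102. With each of these compounds 15.6% of all tested genes were called higher. With BSJ-03-123, 4 of the 8 fell and 0 rose. The lowest of the 8 was the ubiquitin ligase TRAIP (-0.67 ± 0.062 with palbociclib and -0.56 ± 0.061 with YKL-06-102). The highest was the segregase VCP with palbociclib (0.084 ± 0.028) and NPLOC4, its cofactor, with YKL-06-102 (0.11 ± 0.034).

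Markers of G2 and mitosis moved in the same direction by less. Of 18 such genes 18 fell with palbociclib, 18 with BSJ-03-123 and 15 with YKL-06-102, with medians of -0.41, -0.37 and -0.31. FOXM1, a mitotic transcription factor, was the lowest with palbociclib (-0.84 ± 0.038) and CENPE the highest (-0.14 ± 0.052). With YKL-06-102 they were CDK1 (-0.61 ± 0.036) and CDC20, which did not pass (0.030 ± 0.031). Summed over the list, levels were 3477 to 3631 CPM with DMSO, 2629 to 2633 CPM with palbociclib, 2692 to 2755 CPM with BSJ-03-123 and 2872 to 2905 CPM with YKL-06-102. Without DMSO replicate 2 the counts called lower were equal in each of the 6 lists and 3 comparisons, except that 14 of these 18 genes fell and 1 rose with YKL-06-102. Of the genes of helicase unloading, 1 was then called higher with BSJ-03-123, against 0 with all libraries. The part of cell-cycle position in the decrease of the MCM genes was not tested.

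**Figure D5:**
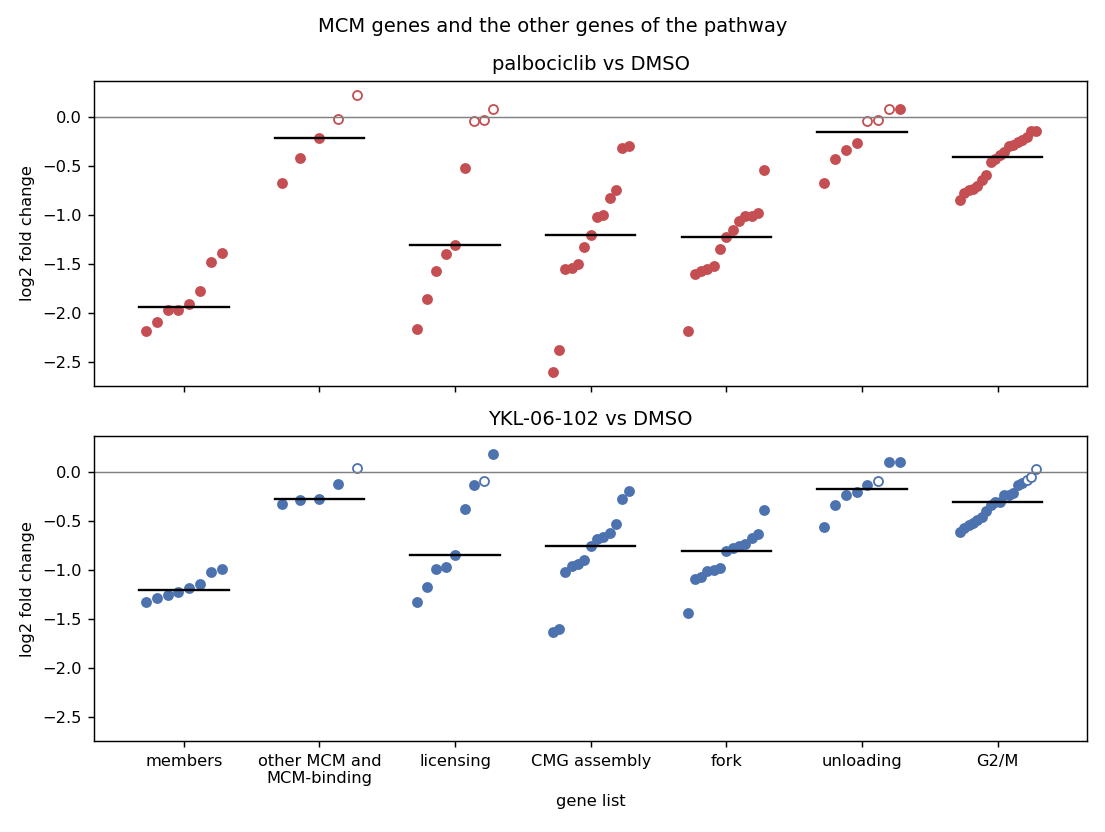
Log2 fold change against DMSO (vertical axes) of the 8 members and of 6 lists of related genes (horizontal axis), with palbociclib above and YKL-06-102 below. Each point is a gene, filled where it passed the edgeR test, and bars are list medians. The median of the members, -1.94 and -1.20, lies below that of each list, and single genes such as GINS2 lie lower still.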

How the data were processed

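Libraries from polyadenylated RNA (12 in all) were made with a stranded kit, per the labels' protocols. The authors deposited 1 table of raw read counts per Ensembl gene. The submitters' processing notes name Trimmomatic 0.36, STAR 2.5.2b, HTSeq and the build hg38, and neither the strand setting nor the annotation release is stated there. Names, positions and exon lengths came from GENCODE 29, which named 57447 of 58051 genes.

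All 12 libraries were fitted in R 4.3.3 with edgeR 4.0.16 (TMM factors, filterByExpr with minimum count 10 and minimum total 15, quasi-likelihood test, 2-sided), on 14214 genes, with Benjamini-Hochberg adjustment over all of them and calls below 0.05. CPM use TMM factors. Log2 fold changes carry edgeR's prior count of 0.125, and 95% intervals were built from the fit's standard errors and degrees of freedom. Log2 CPM for profiles used a prior count of 2 and genes with an average of at least 2.

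Named genes were the 8 members, their neighbours, the 5 or 3 genes nearest in profile, and the lowest and highest of each list. Members, lists and rules were chosen with earlier results of these data known. DESeq2 1.42.0, limma 3.58.1, other scalings and left-out libraries served as alternatives.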

Additional observations from a re-analysis of the deposited data

How the results depend on the processing

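All 8 members were called in the same direction under every alternative run in each comparison except BSJ-03-123 against palbociclib, the alternatives being DESeq2, limma-voom, library totals, no filter on low counts, a fit of 2 groups, the replicate block and each library left out. In that comparison 3 members were called, 4 with DESeq2, without the filter, with 2 groups only or with the block (MCM6 added, adjusted p = 0.0174 to 0.0403), 2 with limma-voom (MCM5 at adjusted p = 0.0534) and 1 to 2 with a library left out. Over all genes that comparison gave 22 higher and 0 lower, 36 and 4 with DESeq2, 42 and 22 without the filter, 61 and 14 with 2 groups, and 3 to 13 higher with a library left out. No direction reversed for any member.

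The median log2 fold change of the members against DMSO was -1.89, -1.71 and -1.16 with library totals for palbociclib, BSJ-03-123 and YKL-06-102, and without the filter -1.92 for palbociclib and -1.17 for YKL-06-102. With each library left out it ran from -1.95 to -1.91, from -1.79 to -1.73 and from -1.23 to -1.14. Between compounds it ran from 0.14 to 0.18 for BSJ-03-123 against palbociclib, 0.65 to 0.70 for YKL-06-102 against palbociclib and -0.58 to -0.53 for BSJ-03-123 against YKL-06-102. The log2 share difference of palbociclib from DMSO ran from 0.062 to 0.094 for MCM3, -0.13 to -0.076 for MCM5 and -0.15 to -0.076 for MCM6. The cause of these shifts was not tested.

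Same-numbered libraries of different groups were not taken as paired, since the labels do not pair them. Their deviations from group means correlated at -0.16 to 0.23, against -0.21 to 0.18 for differently numbered libraries. Of 12 libraries 7 were closest to their own number, where 4 would be the average without pairing. Whether there was a weak pairing cannot be told from these values. With the replicate block the members called stayed at 8 in 5 comparisons and went to 4 for BSJ-03-123 against palbociclib, with medians of -1.94, -1.75 and -1.20 against DMSO. Over all genes it gave 2202 higher and 2485 lower for palbociclib. MCM8 and MCM10 were the members with the fewest reads, and their BSJ-03-123 minus palbociclib differences of 0.13 and 0.17 had standard errors of 0.052 and 0.051. Leaving out DMSO replicate 2 from the ratios, lists and nearest profiles was chosen after seeing the data.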

Other observations

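The table has rows for 3 microRNA hairpins annotated on the MCM7 strand within its introns, none of whose bases lie in an MCM7 exon. In polyadenylated RNA, reads on such a hairpin are not mature microRNA. The row of MIR25 held 55, 68 and 58 reads in the DMSO libraries, 33, 18 and 20 with palbociclib, 13, 17 and 25 with BSJ-03-123 and 33, 21 and 24 with YKL-06-102. It fell with each compound, by 1.47, 1.71 and 1.42 on the log2 scale (SE 0.21 to 0.22; edgeR, adjusted p = 2.70e-06, 7.58e-07 and 2.46e-06 with palbociclib, BSJ-03-123 and YKL-06-102), and MCM7 itself fell by 1.48, 1.40 and 1.02. MIR93 and MIR106B, with 53 and 74 reads over the 12 libraries, were too low to be tested.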
